A study of Mus musculus with 4 samples.

Results

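The regions described here are the megabases of the mouse autosomes that hold little H3K4me3 in MDER 10T cells. They were chosen from autosomal tiles of 1 Mb, laid from the first base of each chromosome, that held at least 500 reads of whole-cell extract (WCE, chromatin sequenced without an antibody). A tile was taken when its H3K4me3 read count, scaled to the WCE autosomal total, was at most 1/1.5 of its WCE count. Of 2191 such tiles, 690 (31.5%) met this rule, and the other 1501 serve for comparison. The H3K4me3 and WCE counts chose the tiles, so their H3K4me3 and WCE values are given as a description without a test.

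MDER 10T cells are mouse fibroblasts, and the series title says that they carry an estrogen-inducible MyoD1. All 4 libraries come from cells grown in DMEM/F12 that lacked phenol red, with 10% FCS, and the labels name no estrogen treatment. Immunoprecipitation used Abcam antibodies to H3K4me3, H3K27me3 or H3K9me3, and the WCE library had none. Each of these 4 groups is 1 library, so no spread between replicates can be measured, and a test on reads compares libraries and not conditions. Intervals are 95% exact (Clopper-Pearson) intervals and cover counting error only, because PCR copies without molecular identifiers are not independent molecules.

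H3K4me3, trimethylated lysine 4 of histone H3, marks the start sites of active and poised genes and is densest at CpG islands. H3K27me3 is laid down by Polycomb repressive complex 2 over silenced developmental genes, and H3K9me3 marks constitutive heterochromatin and silenced repeats. Mammalian chromosomes alternate between gene-dense segments with many promoters and long gene-poor segments with few, and the latter often lie at the nuclear lamina. Coordinates are mm8, counted from 1. The gene table used here is of another build, so no tile or window was assigned to a gene.

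The poor tiles had low H3K4me3, low H3K27me3 and low WCE read density, while H3K9me3 was closest to the WCE level. Over all 690 tiles pooled, the ratio of mark to WCE, scaled to equal autosomal totals, was 0.491 (0.489 to 0.493) for H3K4me3. It was 0.710 (0.707 to 0.713) for H3K27me3 and 0.902 (0.899 to 0.906) for H3K9me3. In the other 1501 tiles the pooled ratios were 1.149, 1.09 and 1.03. The poor tiles held 19.97% of the autosomal WCE reads, 18.0% of the H3K9me3 reads, 14.2% of the H3K27me3 reads and 9.81% of the H3K4me3 reads.

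WCE density was lower in the poor tiles, although the rule itself favours tiles with many WCE reads. They held between 500 and 3403 WCE reads, with a median of 798 and quartiles of 644 and 1005. The other tiles ran from 510 to 4414, with a median of 1477. On each of the 19 autosomes the median WCE count of the poor tiles lay below that of the other tiles, for example 690.5 against 1236 on chromosome 1 and 1212 against 2128 on chromosome 19. Windows without reads were more common. Windows of 4 kb with no WCE read made up 11.2% of the poor tiles and 6.25% of the others. Windows with no read in any library made up 4.69% of the poor tiles and 3.26% of the others, and in windows with reads the mean WCE count was 3.62 against 6.36. The base composition and the mappable share of these tiles were not measured here.

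**Figure D1:**
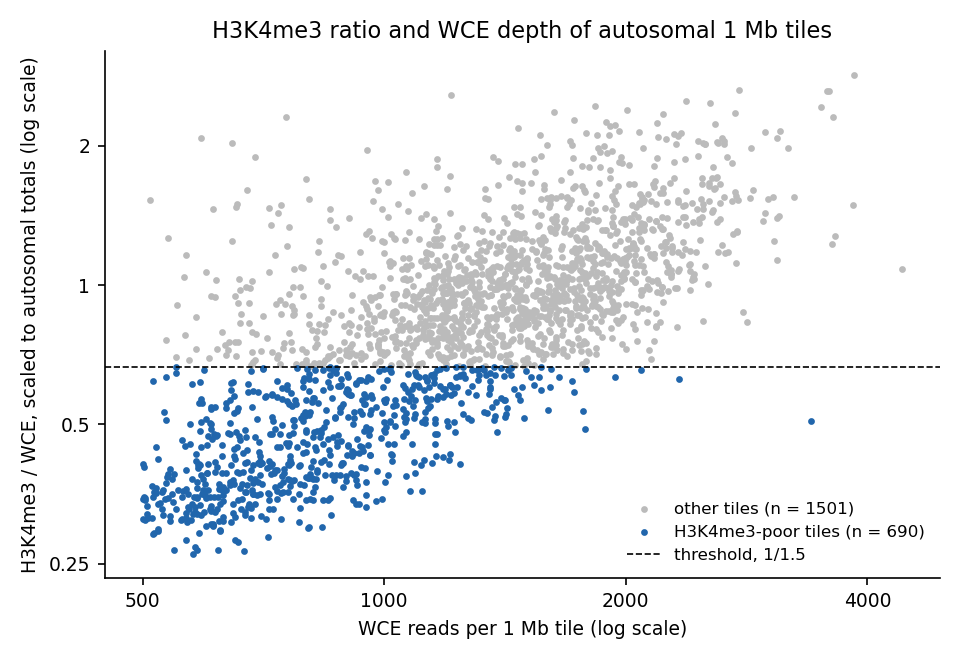
Each point is 1 autosomal 1 Mb tile, with its WCE reads on the x axis and its scaled H3K4me3 to WCE ratio on the y axis, both logarithmic. The 690 poor tiles (blue) lie at or below the dashed threshold and are concentrated at low WCE counts, with 1 tile at 3403 WCE reads standing apart.

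The WCE minimum removes the sparsest sequence. Of 187 autosomal tiles with 100 to 499 WCE reads, 163 (87.2%) had an H3K4me3 ratio that would have met the rule. The 690 tiles therefore leave out many sparser megabases whose H3K4me3 ratio, from fewer reads, was also within the rule. At the threshold, the tile inside it with the highest ratio was chr3:76000001-77000000 (380 H3K4me3 and 550 WCE reads, ratio 0.6665), and the first tile outside it was chr17:42000001-43000000 (992 and 1435 reads, ratio 0.6669). Also just inside were chr12:118000001-119000000 (865 and 1252 reads) and chr5:52000001-53000000 (849 and 1229 reads). Just outside were chr15:51000001-52000000 (924 and 1335 reads) and chr2:65000001-66000000 (858 and 1238 reads). In 577 poor tiles the whole interval of the ratio lay at or below the threshold, and in 113 it crossed it, as it did in 131 of the other tiles.

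The lowest H3K4me3 ratios belonged to tiles with none of the 4 kb windows called for a mark. Tile chr15:49000001-50000000 held 157 H3K4me3, 315 H3K27me3, 293 H3K9me3 and 577 WCE reads, an H3K4me3 ratio of 0.262 (0.219 to 0.314). Tile chr12:61000001-62000000 held 185, 304, 354 and 669 reads of the same libraries, and chr6:44000001-45000000 held 172, 306, 337 and 621. Tile chr12:63000001-64000000 held 162, 276, 302 and 584, and chr4:76000001-77000000 held 152, 263, 300 and 547. In all 5 the libraries stood in the same order, with H3K9me3 between 0.720 and 0.777 of WCE, H3K27me3 between 0.461 and 0.554, and H3K4me3 between 0.262 and 0.268.

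A small share of the H3K4me3 reads lay in called windows, and the H3K4me3 count was also low in the sequence between them. A 4 kb window was called when a one-sided exact binomial test against WCE gave a Benjamini-Hochberg adjusted p under 0.05 over all windows with a read and a scaled ratio of at least 2. Called H3K4me3 windows held 9.93% (9.82 to 10.0%) of the H3K4me3 reads in the poor tiles and 46.4% in the other tiles. Outside windows called for any mark, the H3K4me3 ratio was 0.445 (0.443 to 0.447) in the poor tiles against 0.664 in the others, 0.670 times as high. With all reads it was 0.427 times as high. The same quotient for H3K27me3 was 0.652 with all reads and 0.662 outside called windows, and for H3K9me3 it was 0.877 and 0.875. The H3K4me3 quotients come from the reads that chose the tiles.

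The value of 1/1.5 depends on where the scale is set. A large share of the H3K4me3 reads lies in peaks, so scaling by autosomal totals lowers the ratio of the sequence between peaks. Outside called H3K4me3 windows the pooled ratio was 0.446 in the poor and 0.670 in the other tiles, where single tiles reached up to 1.02. When the scale was set by autosomal reads outside called windows, which raises H3K4me3 ratios by 0.70 on the log2 scale, 259 tiles met the rule, all of them among the 690. When it was set by the median ratio of 100 kb bins, which raises H3K4me3 ratios by 0.81, H3K27me3 ratios by 0.31 and H3K9me3 ratios by 0.08 on that scale, 192 did, again all among the 690. The order of tiles by ratio, and the quotient between poor and other tiles in a fixed division, are the same under each scale. The order of the marks within a tile can change.

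H3K27me3 was low in most poor tiles. The tile ratio ran from 0.402 to 1.47 with a median of 0.640, against 0.482 to 1.96 with a median of 1.02 in the other tiles, and it was below 1 in 662 of 690. It was at most 1/1.5 in 392 poor tiles (56.8%), where 20.4% of all 2191 tiles lay that low and 3.598% of the other tiles did. No poor tile reached 1.5, where 3.01% of all tiles did. The pooled H3K27me3 ratio of the poor tiles was below that of the other tiles on each of the 19 autosomes, and so was that of H3K9me3. WCE is shared with the rule. WCE and H3K4me3 reads were therefore also divided at random into 2 sets, 1 to choose tiles and 1 to measure them. The H3K27me3 ratio was then 0.714 in 698 poor tiles and 1.09 in the others. WCE depth moved with the ratio, and within bands of equal WCE depth the gap was smaller. Poor and other tiles stood at 0.580 and 0.769 where WCE had at least 500 and under 750 reads, at 0.680 and 0.843 from there to under 1000 reads, and at 0.986 and 1.18 with 1500 reads or more. How far depth, base composition or mappability sets the difference was not tested.

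H3K9me3 lay closer to WCE. Its tile ratio ran from 0.517 to 1.95 with a median of 0.846, against 0.627 to 2.25 with a median of 0.995 in the other tiles. It was at most 1/1.5 in 74 poor tiles (10.7%), where 3.83% of all tiles lay that low, and at least 1.5 in 15 (2.17%), close to the 2.56% of all tiles. Within WCE bands poor and other tiles differed little, at 0.824 and 0.890 under 750 reads and at 0.879 and 0.926 from 750 to under 1000. With 1500 reads or more, the 19 poor tiles stood at 1.065, above the 1.051 of the others. Without chr17:39000001-40000000, a tile with most of its WCE reads in 1 window, the other 18 stood at 1.03, below 1.051.

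**Figure D2:**
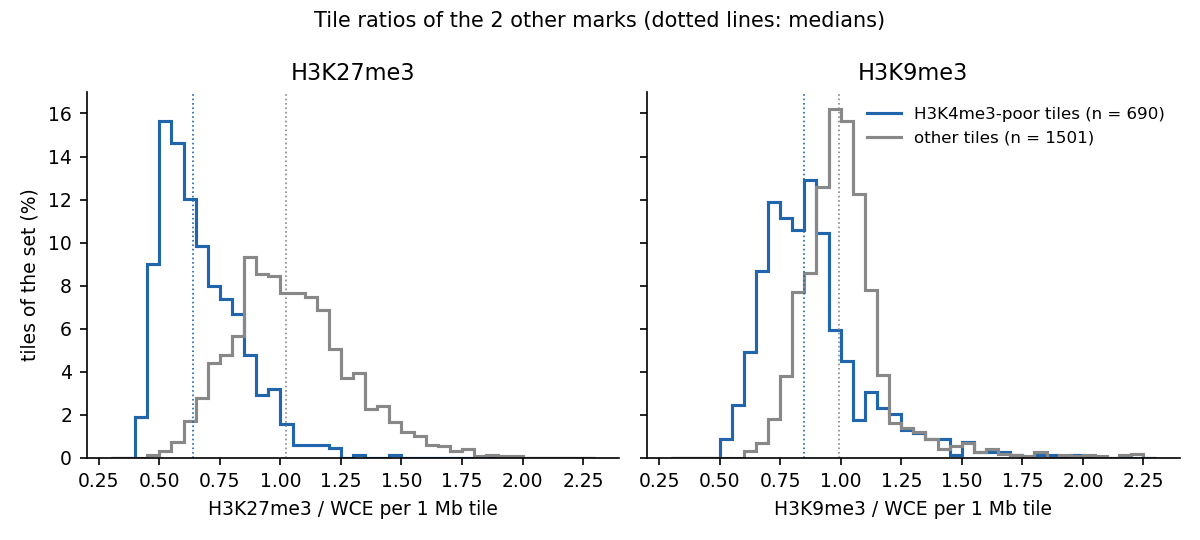
Distribution of the H3K27me3 (left) and H3K9me3 (right) ratio to WCE over 1 Mb tiles, as percent of the tiles in each set, with dotted lines at the medians. The H3K27me3 medians stand at 0.640 and 1.02, and the H3K9me3 medians closer together at 0.846 and 0.995.

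H3K27me3 was also compared directly with H3K9me3, which uses neither library of the rule. A two-sided exact binomial test was run per tile with Benjamini-Hochberg adjustment over all 2191 tiles, and a tile was called at an adjusted p under 0.05 and a scaled ratio of at least 5/4. H3K27me3 was lower than H3K9me3 in 389 poor tiles (56.4%), where 26.5% of all tiles were called in that direction and 12.7% of the other tiles were. It was higher in 12 (1.74%), where 11.2% of all tiles and 15.5% of the others were called. Pooled, H3K27me3 stood at 0.787 (0.783 to 0.790) of H3K9me3 in the poor tiles and at 1.06 in the others. In the other tiles this quotient moved with WCE depth and lay under 1 in each band below 1500 reads. Poor and other tiles stood at 0.704 and 0.863 under 750 reads, at 0.773 and 0.910 from 750 to under 1000, and at 0.926 and 1.12 with 1500 or more. Scaling by the median ratio of 100 kb bins changed the calls in poor tiles to 232 lower and 60 higher, and asking for a 1.5-fold difference left 205 lower. The test compares 2 libraries and gives no spread between cultures.

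The 4 tiles with the least H3K27me3 had no called window of that mark, as was the case in 92.5% of all poor tiles. Tile chr17:60000001-61000000 held 326 H3K27me3 and 823 WCE reads (ratio 0.402, 0.353 to 0.458), and chr15:20000001-21000000 held 264 and 657 (0.408). Tile chr10:16000001-17000000 held 487 and 1209 (0.409), and chr17:91000001-92000000 held 257 and 623 (0.419). H3K9me3 was above H3K27me3 in all 4, with ratios of 0.622, 0.673, 0.628 and 0.862.

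Some poor tiles had H3K27me3 above WCE. The highest was chr10:19000001-20000000, with 2180 H3K27me3, 1017 H3K4me3, 1078 H3K9me3 and 1503 WCE reads, an H3K27me3 ratio of 1.47 (1.38 to 1.57) and 5 called H3K27me3 windows. Tile chr14:67000001-68000000 held 1525 H3K27me3 and 1158 WCE reads (1.34, 1.24 to 1.44), with 1 called window. Tile chr11:33000001-34000000 reached 1.22 with none. Each was a single poor tile between richer or unmeasured ones. The remaining one, chr17:39000001-40000000 (ratio 1.23), drew 59.4% of its 3403 WCE reads from 1 window, chr17:39452001-39456000, which held 2699 H3K27me3, 2189 H3K9me3, 1145 H3K4me3 and 2021 WCE reads. Without that window the tile's ratios were 1.05 for H3K27me3, 1.17 for H3K9me3 and 0.454 for H3K4me3, still within the rule.

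The 4 poor tiles with most H3K9me3 had no called H3K4me3 window. Tile chr12:107000001-108000000 held 1711 H3K9me3, 818 H3K4me3, 1052 H3K27me3 and 1241 WCE reads, an H3K9me3 ratio of 1.95 (1.82 to 2.10). Tile chr2:171000001-172000000 had a ratio of 1.87 (1.74 to 2.03), chr8:90000001-91000000 of 1.81 (1.70 to 1.92) and chr12:117000001-118000000 of 1.74 (1.62 to 1.88). Over the 15 poor tiles at 1.5 or more, 14 had no called H3K4me3 window, against 414 of all 690. None had a called H3K27me3 window, as in 638 of all 690, and the H3K27me3 ratio ran from 0.681 to 1.03. At the low end, chr14:96000001-97000000 held 256 H3K9me3 and 702 WCE reads (0.517, 0.446 to 0.597), chr7:94000001-95000000 held 268 and 712 (0.533), chr14:88000001-89000000 held 204 and 541 (0.534) and chr3:125000001-126000000 held 273 and 719 (0.538). In 3 of these 4, all but the tile on chromosome 7, the H3K27me3 ratio was above that of H3K9me3, although no difference in the 4 passed the direct test.

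Poor tiles differed among themselves along a gradient. The 240 tiles with an H3K4me3 ratio under 0.4 had a median of 648 WCE reads, a pooled H3K27me3 ratio of 0.555 and a pooled H3K9me3 ratio of 0.777. The 288 tiles with a ratio of 0.5 or more had 1002 WCE reads, 0.814 and 0.975. Across the 690 tiles, the H3K27me3 ratio correlated with the H3K4me3 ratio (Pearson r 0.66, Spearman rho 0.72) and with the WCE count (r 0.64, rho 0.63). The H3K9me3 ratio followed them less closely (r 0.36 with H3K4me3, r 0.31 with WCE). In the other tiles the H3K27me3 ratio also correlated with the H3K4me3 ratio (rho 0.39) and with the WCE count (rho 0.58). Over all 2191 tiles rho was 0.71 and 0.76, so this gradient was not particular to the poor tiles. These are descriptions across tiles, and the ratios share the WCE library.

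Poor tiles occurred together. They formed 354 runs of adjoining tiles, of which 194 were a single tile, 77 spanned 2 Mb, 47 spanned 3 Mb and 36 spanned at least 4 Mb. The 36 longest held 201 tiles, 29.1% of all. Another poor tile adjoined 71.9% of the poor tiles and 34.4% of the other tiles. H3K27me3 was lower in longer runs, at 0.808 of WCE in single tiles, 0.716 in runs of 2 Mb, 0.682 in runs of 3 Mb, 0.612 in runs of 4 to 5 Mb and 0.610 in runs of 6 Mb or more. H3K9me3 was 0.975, 0.891, 0.906, 0.838 and 0.805 in the same classes, where runs of 2 Mb lay below runs of 3 Mb. The median WCE count was 874.5, 764.5, 842, 741 and 718.5. The share of poor tiles ran from 19.2% on chromosome 13 and 20.4% on chromosomes 7 and 11 to 43.0% on chromosome 14 and 44.9% on chromosome 12.

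The longest run was chr15:13000001-25000000. Its 12 tiles held between 568 and 926 WCE reads and between 181 and 447 H3K4me3 reads, with ratios of 0.279 to 0.466 and 0.345 (0.331 to 0.360) in all. H3K27me3 stood at 0.531 (0.512 to 0.551) and H3K9me3 at 0.696 (0.671 to 0.723). H3K9me3 was above H3K27me3 in every tile of the run, by most at chr15:17000001-18000000 (0.826 against 0.481) and by least at chr15:23000001-24000000 (0.569 against 0.540). Only 1 H3K4me3 window and 1 H3K27me3 window were called in these 12 Mb. The tiles on either side held 1760 and 1885 H3K4me3 reads against 1820 and 1834 WCE reads, with 6 called H3K4me3 windows each.

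The second longest run was chr6:73000001-82000000. Its 9 tiles had H3K4me3 ratios of 0.291 to 0.615 (0.420 in all), H3K27me3 of 0.428 to 0.792 (0.598) and H3K9me3 of 0.688 to 1.13 (0.922). The tile before it, chr6:72000001-73000000, held 4305 H3K4me3 and 2536 WCE reads and 25 called H3K4me3 windows, and the first tile of the run held 660 and 1062 reads and 1 window. Runs of 8 Mb were chr4:24000001-32000000, chr8:99000001-107000000, chr16:70000001-78000000 and chr5:12000001-20000000. Their pooled H3K4me3 ratios were 0.475 (0.453 to 0.4995), 0.476 (0.459 to 0.494), 0.480 (0.458 to 0.502) and 0.504 (0.482 to 0.526). The H3K27me3 ratios were 0.567, 0.629, 0.599 and 0.625, and those of H3K9me3 0.707, 0.878, 0.846 and 0.721. Over these 6 runs H3K9me3 ranged from 0.696 to 0.922 and H3K27me3 from 0.531 to 0.629.

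**Figure D3:**
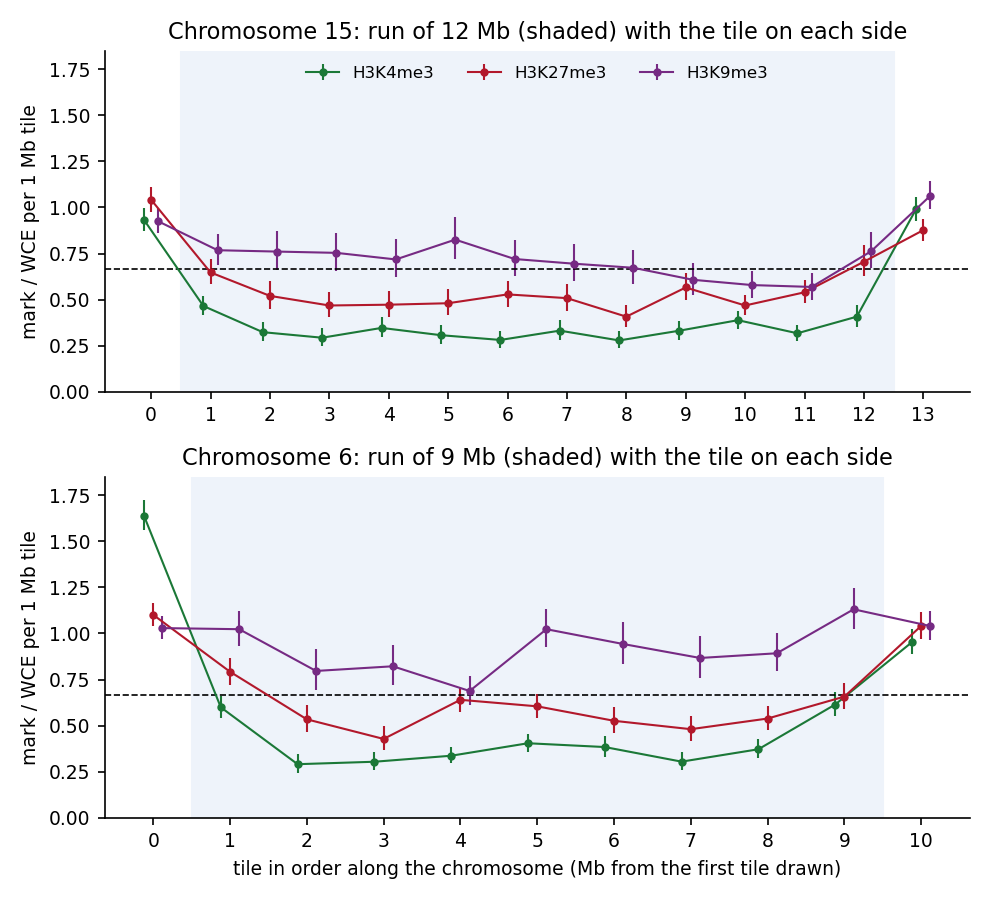
Ratio of each mark to WCE (y axis) in consecutive 1 Mb tiles (x axis) of the 12 Mb run on chromosome 15 and the 9 Mb run on chromosome 6, with the adjoining tile on each side outside the shading. Bars are 95% exact intervals and the dashed line is the threshold of 1/1.5. With scaling by autosomal totals, H3K4me3 is the lowest and H3K9me3 the highest of the 3 marks in every shaded tile. In some shaded tiles the direct test did not call H3K27me3 lower than H3K9me3. Scaling by the median ratio of 100 kb bins raises H3K4me3, H3K27me3 and H3K9me3 unequally (0.81, 0.31 and 0.08 on the log2 scale). Under that scale this order does not hold in every shaded tile.

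At 612 run ends the next tile was a richer one that also passed the WCE minimum, and at 96 it was a tile under 500 WCE reads or the end of the chromosome. The median step in the H3K4me3 ratio between adjoining tiles was 1.87-fold (quartiles 1.55 and 2.298), and 250 edges (40.8%) had a step of at least 2-fold. The richer tile had a median ratio of 0.907, and 207 (33.8%) reached 1. The richer tile also had more WCE reads at 535 edges (87.4%), a higher H3K27me3 ratio at 494 (80.7%) and a higher H3K9me3 ratio at 369 (60.3%). Tile edges are set by the grid and not by the data, so the change itself may lie at some distance from them.

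In 100 kb bins, H3K4me3 jumped at the edge while WCE and H3K27me3 changed gradually. A run of a single tile, as 194 of 354 were, enters these bins from each edge it has with a richer tile. A richer tile with a poor tile on both sides, as 96 were, also enters from each side. Some reads are thus counted more than once, and the far inside bins of single tiles lie near their opposite edge. The H3K4me3 ratio was 0.512 in the bin centred 350 kb inside the run, 0.584 at 50 kb inside, 0.857 at 50 kb outside and 1.04 at 950 kb outside. Because the tiles were chosen by this ratio, a jump at the grid line follows from the choice. The contrast with H3K27me3, which did not choose the tiles, is therefore description only. H3K27me3 rose from 0.765 at 350 kb inside to 0.853 at 50 kb inside, 0.871 at 50 kb outside and 0.953 at 950 kb outside. Mean WCE reads per bin were 93.6, 106, 116 and 136 at the same distances. H3K9me3 stayed between 0.926 and 0.975 over all 20 bins. At the 147 edges of runs of 3 Mb or more it was lower deep inside, at 0.850 in the bin centred 950 kb inside, 0.924 at 50 kb inside and 0.941 at 50 kb outside. H3K27me3 at these 147 edges was 0.642, 0.845 and 0.855 in the same bins. Over all 612 edges it was 0.769 at 950 kb inside. Called H3K4me3 windows numbered 73 in the last 100 kb inside the 612 edges and 233 in the first 100 kb outside. The first called H3K4me3 window lay a median of 268 kb outside the edge. Inward the median distance was 1088 kb, which can reach past the far end of a short run. Of the 194 runs of a single tile, 113 held no called H3K4me3 window.

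**Figure D4:**
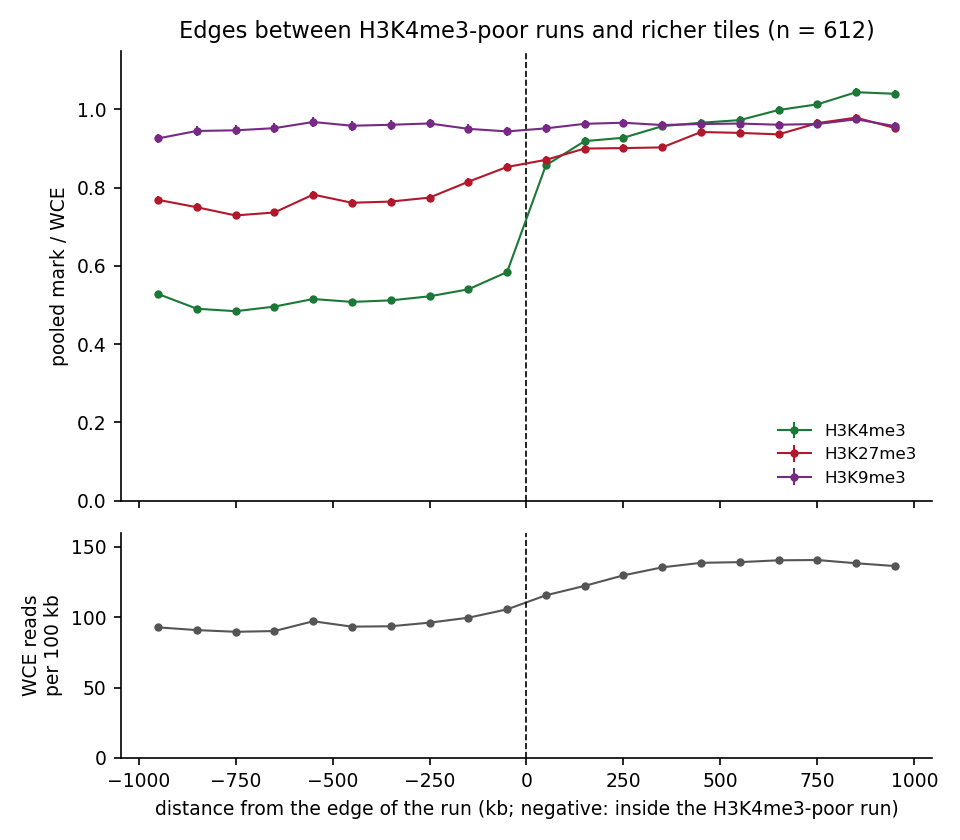
Pooled ratio of each mark to WCE (upper panel, 95% exact intervals) and mean WCE reads (lower panel) in 100 kb bins by distance from 612 edges, with negative distances inside the poor run. Tiles with an edge on both sides enter from each, so the intervals count some reads more than once. H3K4me3 changes from 0.584 to 0.857 between the bins next to the edge, while H3K27me3 and WCE rise over several bins and H3K9me3 stays between 0.926 and 0.975 over these pooled edges. The H3K4me3 ratio chose the tiles, so its step at the edge follows from the choice.

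The sharpest edge lay on chromosome 8. Tile chr8:4000001-5000000 held 1908 H3K4me3 and 1122 WCE reads (ratio 1.64, 1.52 to 1.77) with 13 called H3K4me3 windows, and the poor tile after it, chr8:5000001-6000000, held 191 and 624 (0.295, 0.2498 to 0.348) with none. H3K27me3 went from 0.859 to 0.543 and H3K9me3 from 0.873 to 0.765. On chromosome 2, chr2:84000001-85000000 held 3185 H3K4me3 and 1850 WCE reads with 23 called windows, next to chr2:85000001-86000000 with 222 and 614 and none, a 4.76-fold step. These edges were picked after their values were seen.

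Few peaks lay inside the poor tiles. H3K4me3 windows numbered 408 of 159047 tested (0.257%), where 2.33% of all windows were called and 3.54% of those in the other tiles. No H3K4me3 window was called in 414 poor tiles, 1 in 173, 2 in 77 and 3 or more in 26, against 8 of 1501 other tiles with none. This difference follows from the rule. The mean WCE count per window was also lower in the poor tiles, which lowers the chance of a call.

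The called H3K4me3 windows had a pooled ratio of 6.41 (6.21 to 6.61), against 6.66 (6.63 to 6.70) in the other tiles. Their median was 68 reads against 89. A call itself asks for a ratio of at least 2, so weak peaks are left out and these ratios describe called windows only. Of 364 stretches of adjoining called windows, 87.6% were a single window and the longest measured 8 kb, while in the other tiles 77.2% were single and the longest measured 44 kb. The next called H3K4me3 window was a median of 174 kb away, against 12 kb in the other tiles, and 500 kb or more away for 116 windows (28.4% against 0.538%). Around the densest 500 bp of each window, mean H3K4me3 was 37.4 reads per 500 bp, scaled to the WCE depth. It was 0.367 at 5 kb to either side, below WCE (0.657 and 0.637). In the other tiles it was 46.2 at the centre and 1.76 and 1.74 at 5 kb, above WCE (1.03 and 1.05). Flanks there can hold neighbouring called windows, as 59.6% of windows had another within 20 kb, against 24.5% in the poor tiles. Over 20 kb from called H3K4me3 windows, the pooled H3K4me3 ratio was under 1 in both sets, at 0.441 in the poor and 0.630 in the other tiles. WCE rose at the centre too, to 3.21 in the poor and 3.81 in the other tiles, and the part of this in the ratios was not tested.

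**Figure D5:**
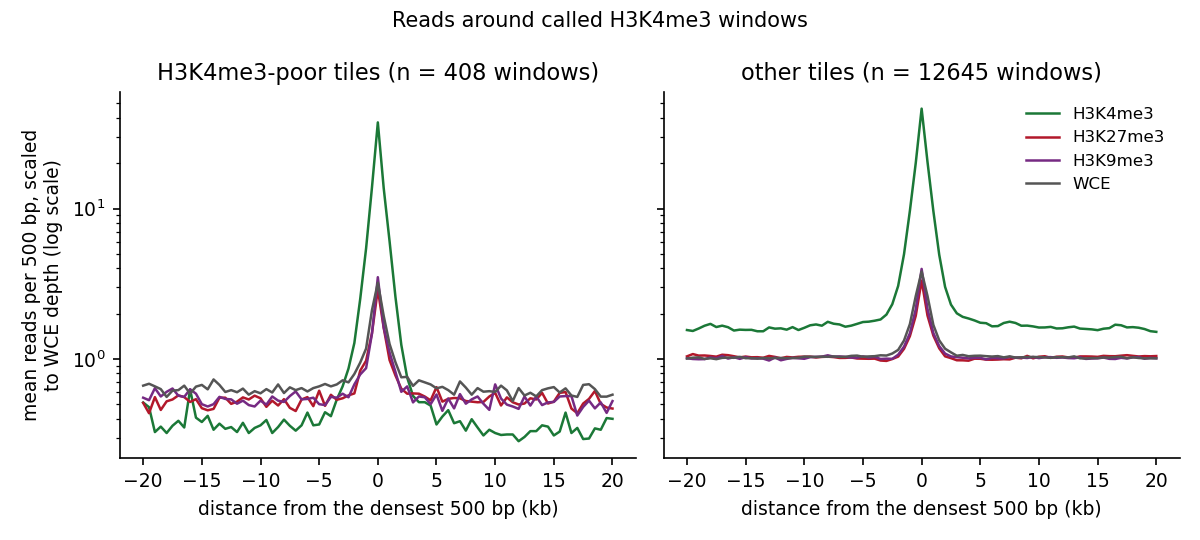
Mean reads per 500 bp (y axis, logarithmic, each mark scaled to the WCE depth) against distance from the densest 500 bp of called H3K4me3 windows, in poor tiles (left, 408 windows) and other tiles (right, 12645 windows). The H3K4me3 peak stands at 37.4 and 46.2. Its mean flanks lie under WCE in the poor tiles and over WCE in the others, where they can hold neighbouring called windows.

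The window chr6:22824001-22828000 ranked first by the ratio with 1 read added to each count, with 103 H3K4me3, 7 H3K27me3, 14 H3K9me3 and 2 WCE reads (ratio 49.7, 13.4 to 416). Its reads lay on both strands, 60 forward and 43 reverse, and 45.6% fell in chr6:22825501-22826000. The window chr14:118232001-118236000 held 148 H3K4me3 and 5 WCE reads (28.6, 11.96 to 89.2), and chr5:18736001-18740000 held 134 and 5 (25.9, 10.8 to 80.9). At chr1:190708001-190712000, 88 H3K4me3 reads faced 4 WCE reads, with 82.9% of them in the first 500 bp. Similar counts were found at chr9:90068001-90072000 (132 and 7), chr10:26060001-26064000 (80 and 4), chr13:71104001-71108000 (79 and 4) and chr11:26284001-26288000 (60 and 3). In these 8 windows H3K27me3 had between 3 and 12 reads, and repeated positions made up 1.90 to 11.1% of the H3K4me3 reads.

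Some peaks stood alone over several Mb. At chr14:92772001-92776000, 123 H3K4me3 and 16 WCE reads were counted (ratio 7.42, 4.39 to 13.4), and the next called window was 5.16 Mb away. At chr16:70196001-70200000 the counts were 84 and 7 (11.6, 5.38 to 29.7), and the next was 4.46 Mb away. The single H3K4me3 window of the 12 Mb run, chr15:22980001-22984000, held 57 and 16 reads (3.44, 1.95 to 6.41) and was 2.38 Mb from the next. These windows were picked for their distance after it was seen. Distance counts only windows called from reads with 1 position, so weaker peaks may lie between. Reads with 2 positions, whose origin is not known, gave H3K4me3 calls at chr14:88744001-88748000 and chr16:74096001-74100000. These lie nearer to the windows named on chromosomes 14 and 16 than the distances given.

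H3K27me3 windows were rare inside the poor tiles, at 86 of 160553 tested (0.0536%), where 0.624% of all windows were called and 0.986% of those in the other tiles. They lay in 52 tiles and 638 tiles had none. The number called was 19 with windows of 1 kb, 40 at an adjusted p under 0.01 and 231 when scaled by the median ratio of 100 kb bins. The 86 windows had a pooled ratio of 5.50 (5.02 to 6.04), against 5.12 (5.06 to 5.19) in the other tiles, which again describes called windows only. Stretches of at least 3 windows were found at 5 places. The longest was chr12:58452001-58472000, 20 kb with 319 H3K27me3, 78 H3K4me3, 53 H3K9me3 and 55 WCE reads (5.89, 4.41 to 7.99). The 16 kb stretch chr12:119280001-119296000 held 179 H3K27me3 and 22 WCE reads (8.26, 5.29 to 13.5), and that at chr17:85520001-85536000 held 141 and 25 (5.72). Stretches of 12 kb lay at chr14:11132001-11144000 (137 and 20 reads) and chr2:147720001-147732000 (110 and 32 reads). In none of these 5 was a window also called for H3K4me3, and the nearest called H3K4me3 window was between 56 and 644 kb away.

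Ranked by the ratio with 1 read added to each count, the first H3K27me3 window was chr12:119292001-119296000, inside the 16 kb stretch, with 69 H3K27me3, 25 H3K9me3, 8 H3K4me3 and 5 WCE reads (14.0, 5.72 to 44.5). This window was called for H3K9me3 as well. Others were chr12:54168001-54172000 (58 H3K27me3 and 5 WCE reads) and chr2:147736001-147740000 (52 and 5). At chr14:118272001-118276000 (22 and 1), chr6:5356001-5360000 (21 and 1) and chr5:42036001-42040000 (20 and 1) the WCE count was 1, and the ratio of 22.3 at the first has an interval of 3.61 to 922. The remaining ones, chr12:119280001-119284000 (40 and 4) and chr12:119284001-119288000 (39 and 4), belong to the 16 kb stretch.

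Both H3K4me3 and H3K27me3 were called in 10 windows of the poor tiles, 11.6% of their H3K27me3 windows and 2.45% of their H3K4me3 windows. In the other tiles the shares were 7.88% and 2.21%. Examples are chr2:124300001-124304000 with 109 H3K4me3, 40 H3K27me3 and 13 WCE reads, chr2:10288001-10292000 with 87, 46 and 12, and chr15:48620001-48624000 with 37, 30 and 5. Pooled reads do not show whether both marks lay on the same chromosomes. A called H3K4me3 window lay within 20 kb of 16.3% of the H3K27me3 windows in poor tiles and of 31.8% in the others, and H3K4me3 windows were also sparser there.

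H3K9me3 windows numbered 8 of 160690 (0.00498%), where 0.0195% of all windows were called. The clearest was chr6:53748001-53752000, with 48 H3K9me3, 24 H3K27me3, 14 H3K4me3 and 10 WCE reads (6.80, 3.40 to 15.1, adjusted p 3.6e-06 by the exact binomial test). Of the other 7, 3 lay on chromosome 8 between 90536001 and 92876000, where chr8:90748001-90752000 held 24 H3K9me3 and 4 WCE reads and chr8:90536001-90540000 held 22 and 4. At an adjusted p under 0.01, 1 window was called, and with windows of 1 kb none was.

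Reads with 2 reported positions were counted apart. In the poor tiles 44 windows were called for H3K4me3 from such reads, where 0.423% of all windows with them were called, and 0.144% in the poor tiles. None was called there for H3K27me3 or H3K9me3, where 0.0228% and 0.0103% of all such windows were.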

How the data were processed

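Per the file headers, the authors aligned reads to mm8 with Bowtie (options e 70, k 2, m 2, n 2 and l 36), which the submitters' processing notes also name without a version. The deposited values are other than counts or scores: each line is the signed position of 1 read (minus for the reverse strand), in separate lists for reads with 1 and with 2 positions. Per the labels' protocols, chromatin averaged 500 bp, PCR ran for 18 cycles, and inserts measured 50 to 200 nt.

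From reads with 1 position (2335857 to 3339861 per library), 1 per position and strand was kept and moved 60 bp along its strand. The autosomes then held 3086567 H3K4me3, 2933567 H3K27me3, 2101444 H3K9me3 and 2977697 WCE reads. Poor tiles held at least 152 H3K4me3, 218 H3K27me3 and 204 H3K9me3 reads each. Window tests ran over chromosomes 1 to 19, X and Y in 4 kb windows, and were tested on simulated data. Border bins measured 100 kb.

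Named tiles were the 5 with least H3K4me3, the 4 highest and 4 lowest for H3K27me3 and H3K9me3, the longest runs, and the 3 on each side of the threshold. Named windows were chosen among the called ones holding 20 reads or more of the mark: for H3K4me3 and H3K27me3, the 8 that ranked first by log2 of the ratio with 1 read added to each count (4 H3K9me3 windows held that many reads). Stretches of 3 or more called H3K27me3 windows, all H3K9me3 windows and windows with both marks were also listed. The rule and the lists were chosen with earlier results of these data known. Software was matplotlib 3.10.9, scipy 1.17.1, numpy 2.4.6 and Python 3.11.15.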

Additional observations from a re-analysis of the deposited data

Results flagged for a closer look

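Reads with 2 reported positions, which the comparisons above leave out, showed H3K4me3 above WCE in 44 windows of 4 kb inside the poor tiles (0.144% of 30645 tested), where 0.423% of all windows with such reads were called. They are listed because they are signal above the control in reads that the main measurement leaves out, and their share is lower than over all windows. Reads with 1 position gave no call at 39 of these windows. The window chr2:39044001-39048000 held 76 H3K4me3 and 3 WCE reads of this kind, chr14:118072001-118076000 held 75 and 5, and chr13:18000001-18004000 held 57 and 3, with no read of 1 position in either library at the last. Each such read is listed at both of its places, so its origin is not known. No window was called for H3K27me3 or H3K9me3 from these reads in the poor tiles.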

How the results depend on the processing

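In every alternative tried, the pooled H3K27me3 level of the poor tiles stayed below that of the other tiles. The H3K9me3 level did too, except in tiles with 1500 or more WCE reads, where it was 1.065 in poor and 1.051 in other tiles. Without the poor tile that draws most of its WCE reads from 1 window it was 1.03 there, above WCE but below the other tiles. How many tiles were poor depended on the settings, with 690 of 2191 (31.5%) in the main one. Scaling by the median ratio of 100 kb bins left 192 of 2191 (8.76%), and scaling by reads outside called windows 259 (11.8%). With tiles of 500 kb, 1700 of 4319 (39.4%) were poor, and with at least 1000 WCE reads per tile 179 of 1468 (12.2%). At a threshold of 1/2, 402 of 2191 (18.35%) were. The longest run then fell to 3 Mb with at least 1000 WCE reads.

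In the same order, from the median-ratio scaling to the threshold of 1/2, the H3K27me3 level was 0.6756, 0.5794, 0.7769, 0.8418 and 0.6053. The H3K9me3 level was 0.8147, 0.7865, 0.9406, 0.9861 and 0.8293. At a threshold of 4/5 they were 0.7904 and 0.9418, with all reads kept 0.7142 and 0.9205, and with tiles starting 500 kb later 0.7187 and 0.9071. The H3K27me3 level was 0.6939 with at least 100 WCE reads, 0.7007 with reads of 1 or 2 positions and 0.7144 with the reads divided at random. In the 5 bands of WCE depth, chosen after seeing the data, H3K27me3 stood at 0.58, 0.6797, 0.7876, 0.8713 and 0.986 (0.9588 without that tile) and H3K9me3 at 0.8237, 0.8789, 0.9622, 0.9908 and 1.065.

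Windows called in the poor tiles numbered 19 for H3K27me3 and 0 for H3K9me3 with 1 kb windows, and 40 and 1 at an adjusted p under 0.01. Scaling by the median ratio gave 231 H3K27me3 windows. In the direct comparison H3K27me3 was lower in 232 tiles with that scaling and in 205 at a ratio of 1.5. The cause of these changes was not tested. Windows of 1 kb hold fewer reads each, and a stricter limit can only lower the number called. Of the values recomputed, 2 crossed the WCE level, 51 moved by more than their counting interval or, for numbers of tiles, windows or Mb, by more than 1.5 times, and 42 did not.

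No paired analysis was possible because each group is 1 library and the labels carry no replicate numbers. With 1 library per group, antibody, culture and library cannot be told apart. A mean of 3.62 WCE reads per window with reads limits which windows can be called in the poor tiles, and a weak peak there was not detectable at this depth.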

Other observations

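Reads with 2 positions were more frequent in the poor tiles in all 4 libraries. Per 100 reads with 1 position they numbered 5.73 in WCE, 6.99 in H3K4me3, 6.604 in H3K27me3 and 7.001 in H3K9me3, against 5.22, 4.34, 5.47 and 6.20 in the other tiles.

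With tiles of 100 WCE reads or more, the longest poor run was chr14:79000001-97000000, 18 Mb. The H3K4me3 window that stood 5.16 Mb from the next one called from reads with 1 position lies inside it. In a second poor tile, besides the one on chromosome 17, more than 10% of the WCE reads lay in 1 window: chr2:98464001-98468000 held 409 WCE, 319 H3K9me3, 224 H3K4me3 and 204 H3K27me3 reads, 32.9% of its tile's WCE reads. In the other 688 tiles no window held that much, and the median share of the densest window was 1.44%.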
